A study of Sus scrofa with 3 samples.

Results

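The transcripts described here were precipitated with EZH2 from pig muscle and are listed at 0 in total RNA of the same tissue. They were chosen by their measured values. A member had an FPKM value above 0 in the EZH2 library (EZH2_FPKM), a value of 0 in the IgG library (IgG_FPKM) and a value of 0 in the lincRNAseq library (lincRNA_FPKM), was on 2 identical rows, and was assigned to one of chromosomes 1 to 18. FPKM counts sequenced fragments relative to transcript length and to the total of the library. This selection gave 521 of the 14580 deposited transcripts, or 521 of the 10251 that were on 2 rows and on these chromosomes.

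The tissue was longissimus dorsi, a skeletal muscle of the back, of Large White female pigs aged 1 month. The study describes the precipitates and lincRNAseq as made from the same muscle, but speaks of pigs in one place and of a pig in another, so the number of animals is not known. A lysate of muscle was precipitated with an antibody to EZH2, or with IgG as the antibody control, and the RNA that came down was sequenced (RIP-Seq). The lincRNAseq library was made from total RNA of the muscle with ribosomal RNA removed and with the strand of each read kept. It was prepared by another protocol than the precipitates, so the kind of RNA and the protocol cannot be told apart. Each condition had 1 library, so no value below has a replicate, and intervals cover counting error over transcripts only.

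EZH2 is the methyltransferase within Polycomb repressive complex 2 and modifies a lysine of histone H3 at silenced genes. In muscle the complex is known for holding differentiation genes silent in precursor cells. Long intergenic noncoding RNAs (lincRNAs) are transcripts between genes with no apparent protein product, and some of them bind this complex.

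All transcripts carry TCONS identifiers, which the assembly assigned in numerical order. The files do not pair them with gene names, and 0 of the 14580 identifiers matched the gene tables used here. Lengths, positions and strands of the members were also not in hand, so they are described by their FPKM values, their chromosome and their TCONS number. As no gene is named, the tissue could not be checked against muscle marker genes.

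Of the 10251 transcripts, 4441 had an EZH2_FPKM value above 0 (43.3%). The IgG_FPKM value was 0 for 3898 of these, called EZH2-only transcripts below. Members made up 13.4% of the EZH2-only transcripts (95% Wilson interval 12.3 to 14.5). The other 3377, with a lincRNA_FPKM value above 0, are the comparison transcripts. With 2 added to both values, as in the methods of the study, the log2 ratio of EZH2_FPKM to lincRNA_FPKM was at least 1 for 489 members, where the percentage over all EZH2-only transcripts was 50.3. Nothing is read from these numbers, because the selection used the same contrast.

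A value of 0 is taken here only as listed at 0, since the estimating program can also give 0 where an estimate fails. Of the 1757 transcripts listed at 0 in lincRNAseq, 1154 were also at 0 in both precipitates. A further 54 had values above 0 in both precipitates, and 28 in the IgG library alone. The members were thus 29.7% of all transcripts listed at 0 in lincRNAseq. Comparison transcripts were 39.8% of the 8494 transcripts above 0 in lincRNAseq.

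The depth of the IgG library limits what its zeros can show. For the 543 transcripts with values above 0 in both precipitates, the most frequent ratio of IgG_FPKM to EZH2_FPKM was 5.05. Within 2% of this ratio, of its value divided by 2 (2.52) or of its value divided by 3 (1.68) lay 130 transcripts, or 23.9%. The most frequent ratio is taken here as that of 1 fragment in each library, which could not be checked without fragment counts. On that reading, 1 fragment added about 5.05 times the FPKM in IgG that it added in EZH2. A count of 0 allows up to 3 fragments, and 3 IgG fragments would have the FPKM of 15.1 EZH2 fragments. For a member with fewer EZH2 fragments than that, a lower level in IgG would not be detectable at this depth. In classes of 0.05 on the log2 scale, the fullest class held 10.5% of these ratios but 1.63% of the ratios of EZH2_FPKM to lincRNA_FPKM, so no such step was found there and the depth of the lincRNAseq library is unknown.

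At the limits of the selection, the lowest EZH2_FPKM values were 0.01003 for TCONS_00041900 on chromosome 3 and 0.0422 for TCONS_00037354 on chromosome 2. These were the only members below 0.1, and 16 members were below 1. Just outside, TCONS_00060179 on chromosome 7 had an EZH2_FPKM of 1.06 and a lincRNA_FPKM of 2.96e-06. TCONS_00017204 on chromosome 13 had an EZH2_FPKM of 0.000655 and a lincRNA_FPKM of 3.90e-06. Values above 0 thus came very close to 0, and 129 comparison transcripts had a lincRNA_FPKM of at most 0.1. Among the 54 transcripts kept out by their IgG value, the lowest IgG_FPKM was 2.75.

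The members were at a higher level in the EZH2 precipitate than the comparison transcripts. Their median EZH2_FPKM was 11.4 (95% order-statistic interval 9.69 to 13.2, quartiles 4.61 and 35.3). The comparison transcripts had a median of 2.64 (interval 2.56 to 2.75, quartiles 1.35 and 5.54). On the log2(EZH2_FPKM + 2) scale the medians were 3.74 and 2.21, a difference of 1.53. The difference was 1.001 against comparison transcripts with a lincRNA_FPKM above 1, a limit the study used when screening for lincRNAs. It was also smaller within the first 2 blocks of the TCONS numbering, described below, at 0.76 and 0.50. By steps of 10% of the numbering of each chromosome the difference varied in size but not in sign. From 10 to 40% it was 0.54, but it was 2.19 in the first 10% and 1.71 from 40 to 50%. Of the members, 468 (89.8%) were above the median of the comparison transcripts. The distributions overlapped over most of their range. High values were more frequent among members, of which 77 (14.8%) had an EZH2_FPKM of at least 100, against 43 comparison transcripts (1.27%). The contrast was smaller within the blocks described below. In the first block 67 of 85 members and 35 of 68 comparison transcripts reached 100 FPKM, and in the second 10 of 436 and 7 of 829. Among the 54 transcripts listed at 0 in lincRNAseq but above 0 in both precipitates, high values were more frequent than among all members. Of these 54, 20 (37.0%) reached 100 FPKM, and their median was 36.2 (interval 14.3 to 106.4). EZH2_FPKM was itself part of the selection, as a value above 0, and the difference is given as a description with no test.

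**Figure D1:**
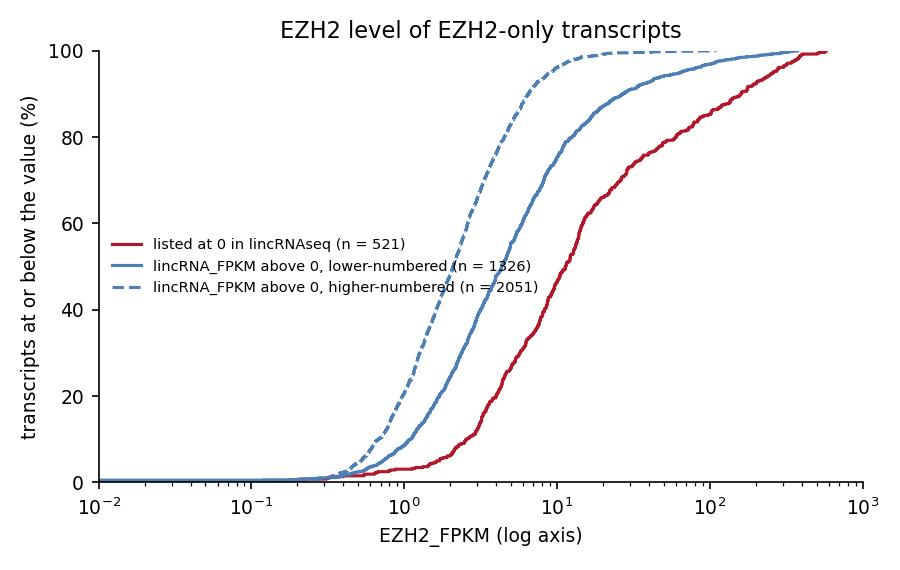
Share of transcripts at or below each EZH2_FPKM value (log axis) for the 521 members (red), the 1326 comparison transcripts with lower TCONS numbers (blue, solid) and the 2051 with higher numbers (blue, dashed), where lower means within the first 50% of places on the chromosome. The curve of the members lies to the right of both others from about 1 FPKM on; comparison values under 0.01 lie left of the axis.

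The highest member was TCONS_00025537 on chromosome 15, at 578.6 in EZH2 and 0 in IgG and lincRNAseq. Next came TCONS_00025544, on the same chromosome, at 565.3 in EZH2 and 0 in the other libraries. Both were above the highest comparison transcript, which had an EZH2_FPKM of 376.4. Their numbers lie close together, and the longest run of members, described below, begins with the first of them. The 10 highest members held 17.9% of the summed EZH2_FPKM of all members. Members held 18.7% of the summed EZH2_FPKM of the 10251 transcripts and comparison transcripts 19.3%. The 54 transcripts listed at 0 in lincRNAseq but above 0 in both precipitates held 49.8%. The highest of these 54 alone had an EZH2_FPKM of 37497.5, where the 54 summed to 66848.7 and the 10251 transcripts to 134199. The shares of the sum over the 10251 transcripts thus depend strongly on that transcript. FPKM weights short transcripts, so these are not shares of fragments.

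The share of EZH2-only transcripts listed at 0 in lincRNAseq rose with the EZH2 level. It was 2.89% (interval 1.79 to 4.64) among 554 transcripts below 1 FPKM and 2.03% (1.25 to 3.27) among 788 from 1 to 2. From 2 to 5 it was 8.59% of 1234, and from 5 to 10 it was 16.4% of 636. It reached 34.1% (30.03 to 38.4) from 10 to 50, 46.6% (35.6 to 57.9) from 50 to 100 and 64.2% (55.3 to 72.2) among 120 transcripts of at least 100. At the highest EZH2 levels, transcripts listed at 0 in lincRNAseq were thus more numerous than those with a value above 0. At the lowest levels they were rare when all TCONS numbers were counted. Below 1 FPKM their share was 12.3% of 130 lower-numbered transcripts and 32.7% of 49 in the second block of the numbering, both described below. The rise was less steep in these ranges. Without transcript lengths the fragments behind these values are unknown, and the part of length in this rise was not tested.

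**Figure D2:**
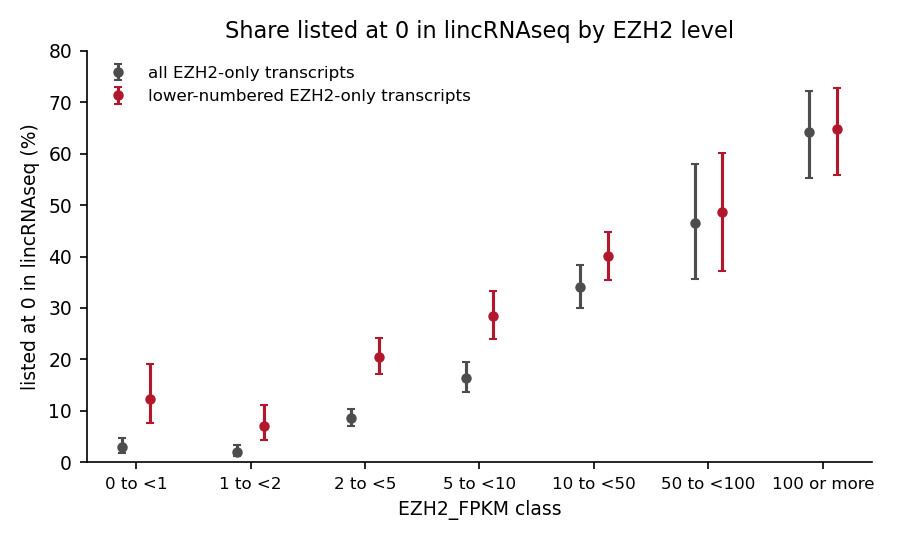
Share of EZH2-only transcripts listed at 0 in lincRNAseq (vertical axis, %) by class of EZH2_FPKM, for all EZH2-only transcripts (grey) and for those with lower TCONS numbers (red). Points are shares and bars 95% Wilson intervals; the grey share goes from 2.89% below 1 FPKM to 64.2% at 100 FPKM or more.

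Members were found on all 18 chromosomes, from 8 on chromosome 17 to 58 on chromosome 1. Their share of the EZH2-only transcripts was lowest on chromosome 17, at 10% of 80 (interval 5.15 to 18.5), and highest on chromosome 8, at 17.2% of 174 (12.4 to 23.5). On 17 chromosomes the interval included the share over all chromosomes, 13.4%. The exception was chromosome 1, with 58 members among 566 EZH2-only transcripts, or 10.25% (8.01 to 13.0). Which chromosomes lay off the overall share changed with the range of TCONS numbers counted. Among transcripts in the first 50% of the numbering of their chromosome, the only ones with members, the overall share was 28.2%, and the interval missed it on 3 chromosomes. These were chromosome 1 at 21.0% (16.6 to 26.2), chromosome 13 at 21.8% (16.5 to 28.1) and chromosome 8 at 42.9% (31.9 to 54.5). With the numbering divided into blocks, described below, the share in the first 2 blocks was 36.7%, and the interval missed it only on chromosome 16, at 54.1% (38.4 to 69.0). As a share of all 10251 transcripts, members made up from 3.85% on chromosome 17 to 6.28% on chromosome 14.

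The EZH2 level of the members also varied between chromosomes, along with how many of them lay in the first numbers of the chromosome. The median EZH2_FPKM of members was lowest on chromosome 11, at 7.01 over 15 members (interval 3.28 to 17.2), and highest on chromosome 14, at 19.2 over 35 members (7.95 to 77.2). In the first block of the numbering, described below, where levels were highest, chromosome 11 had 0 members and chromosome 14 had 12. In the second block alone, the 23 members of chromosome 14 had a median of 7.95 (5.15 to 13.3), close to that of chromosome 11. Chromosome 11 was the only chromosome without a member in the first block, and its highest member, at 57.4, was the lowest such value of the 18. Over all blocks the median of the members was above that of the comparison transcripts of the same chromosome on all 18 chromosomes. In the second block it was so on 16, the exceptions being chromosome 16 (3.98 over 13 members against 11.1) and chromosome 17 (3.598 over 5 members against 6.11).

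**Figure D3:**
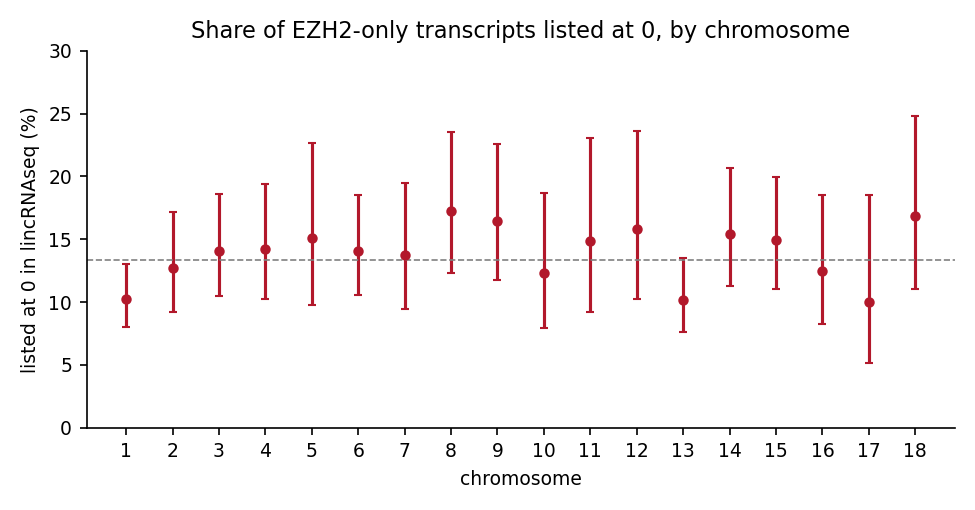
Share of EZH2-only transcripts listed at 0 in lincRNAseq (vertical axis, %) on each chromosome (horizontal axis). Points are shares, bars 95% Wilson intervals and the dashed line the share over all 18 chromosomes, 13.4%; only the bar of chromosome 1 lies wholly below the line.

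In the order of TCONS numbers the members stood apart from the comparison transcripts. The place of a transcript is its rank by TCONS number among the transcripts of its chromosome, in percent, and those at places up to 50% are called lower-numbered, a division chosen after the data were seen. All 521 members were lower-numbered, against 1326 of the 3377 comparison transcripts (39.3%). The last member of a chromosome lay between a place of 27.8% (chromosome 16) and 44.0% (chromosome 5). Comparison transcripts reached a place of at least 98.9% on every chromosome. After the last member of their chromosome followed 6309 transcripts, or 61.5% of all. Among the 2051 EZH2-only transcripts with higher numbers there were 0 members. With up to 3 counts allowed for a count of 0, in place of a Wilson interval, their share is at most 0.146%. As the division was chosen after the data were seen, nothing further is read from this limit.

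**Figure D4:**
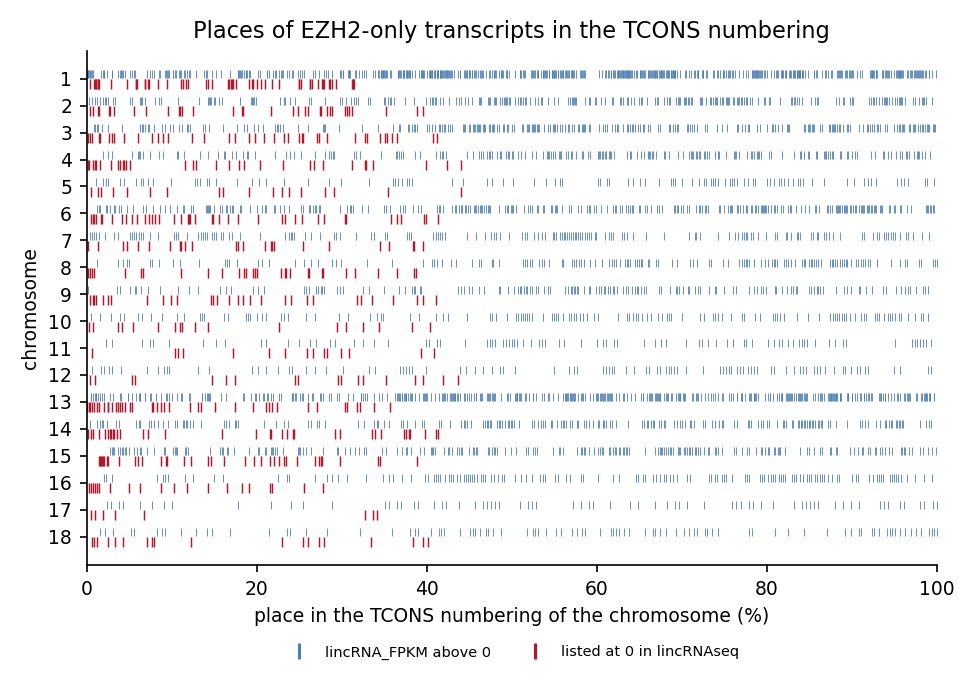
Place of each EZH2-only transcript in the TCONS numbering of its chromosome (horizontal axis, %), with 1 row per chromosome and 1 tick per transcript, for members (red) and comparison transcripts (blue). Red ticks end between 27.8% and 44.0% on every chromosome, while blue ticks go on to at least 98.9%.

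The same division was found for all transcripts listed at 0 in lincRNAseq. Of the 5122 lower-numbered transcripts 1756 were listed at 0 in lincRNAseq (34.3%), and of the 5129 higher-numbered transcripts 1 was. The lincRNA_FPKM values above 0 had medians of 0.392 and 0.399. Their lowest values differed, with 2.96e-06 among lower-numbered and 0.0479 among higher-numbered transcripts, and values below 0.1 made up 11.6% and 0.449%. Low lincRNA_FPKM values, like zeros, were thus mostly found among the lower numbers.

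Between lower and higher numbers, the EZH2 precipitate differed in its levels and less so in its detection. EZH2_FPKM was above 0 for 40.4% of the lower-numbered and 46.3% of the higher-numbered transcripts. By the blocks described below, detection differed more, at 99.5% in the first, 35.7% in the second and 46.3% in the third. Of the 120 EZH2-only transcripts of at least 100 FPKM, 119 were lower-numbered. For comparison transcripts alone these were 42 against 1, and their median EZH2_FPKM was 4.34 (interval 3.96 to 4.74) among lower and 2.09 (1.98 to 2.19) among higher numbers. High EZH2 levels, with or without a zero in lincRNAseq, thus went with low numbers. What separates the lower from the higher numbers in the assembly was not examined here, and its part in the zeros and in the levels was not tested.

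The numbering of every chromosome has 2 steps that are far wider than any other, each at least 4.26 times the next widest step of its chromosome. They divide it into 3 blocks, a division made after the data were seen. The second block begins at a place of at most 4.61%, and the third begins between 29.6% and 48.2%. The first held 201 transcripts, 85 members and 68 comparison transcripts. The second held 3896 transcripts, with 436 members and 829 comparison transcripts. The third held 6154 transcripts, with 0 members and 2480 comparison transcripts. The place of the last members thus lay before the second wide step on all chromosomes.

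Nearly all transcripts of the first block were precipitated with EZH2, and at a high level. EZH2_FPKM was above 0 for 99.5% of them, against 35.7% in the second block and 46.3% in the third. This signal was not confined to the EZH2 library. Of the 201 transcripts of the first block, 85 members and 68 comparison transcripts were EZH2-only, and the others detected in EZH2 were also above 0 in IgG. Over all blocks, IgG_FPKM was 0 for 87.8% of the transcripts with an EZH2_FPKM above 0. The median EZH2_FPKM of members was 177.5 in the first block (interval 151.1 to 228.6) and that of comparison transcripts 104.1 (83.1 to 121.7). In the second block the medians were 8.68 (7.80 to 9.69) and 5.55 (5.02 to 6.11). In the third block the comparison transcripts had a median of 2.13. The first block held 102 of the 120 EZH2-only transcripts of at least 100 FPKM, 67 members and 35 comparison transcripts. The level of a transcript thus went more with its block than with its class.

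Within a block the members were at a higher EZH2 level than the comparison transcripts, by a smaller margin than over all. The difference on the log2(EZH2_FPKM + 2) scale was 0.76 in the first block and 0.50 in the second, in place of 1.53 over all. With all lower-numbered transcripts it was 1.08, but that range takes in 396 comparison transcripts at places from 40 to 50%, where only 14 members lie. In the second block, the share of members among EZH2-only transcripts was 32.7% (21.2 to 46.6) below 1 FPKM, 13.4% (8.45 to 20.7) from 1 to 2 and 43.5% (38.6 to 48.5) from 10 to 50. From 50 to 100 it was 62.1% of 29 (44.0 to 77.3). At 100 FPKM or more it was 58.8% of 17 (36.0 to 78.4). In the first block it was 65.7% of 102 (56.1 to 74.2) at that level. There it was 20% of 10 from 10 to 50 FPKM and 39.0% of 41 from 50 to 100. In the second block it was 29.9% of 355 from 2 to 5 FPKM and 33.1% of 314 from 5 to 10, near the share below 1 FPKM. Below 10 FPKM only the class from 1 to 2 stood apart, with a lower share. The shares of the second block were thus higher from 10 FPKM on than from 1 to 10.

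In steps of 10% of places the median of the members fell over the first 4 steps. The first 10% held 192 members with a median EZH2_FPKM of 41.4 and 262 comparison transcripts with a median of 7.48. As this step mixes the first block with the start of the second, its difference of 2.19 on the log2(EZH2_FPKM + 2) scale is that of a mixture. From 10 to 20% of places the medians were 9.45 for 108 members and 7.05 for 213 comparison transcripts. From 20 to 30% they were 8.40 and 5.37, and from 30 to 40% they were 7.84 and 4.20. On the log2 scale these steps differed by 0.34, 0.50 and 0.67. As the third block begins as early as a place of 29.6%, the step from 30 to 40% also mixes the second block with the third. From 40 to 50% the last 14 members had a median of 12.6, against 2.46 for the comparison transcripts, a difference of 1.71 in a step that mixes the second block with the third. The median of the members was the higher one in each of the 5 steps.

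Zeros in lincRNAseq were spread more evenly than members over the first 3 of these steps. In each of the first 3 steps of 10%, between 43.2% and 43.7% of the transcripts were listed at 0 in lincRNAseq. Members made up 43.6% of these zeros in the first step, 24.3% in the second and 27.7% in the third. From 30 to 40% of places zeros made up 34.8% of the transcripts, and from 40 to 50% they made up 6.60%. By block, zeros made up 53.7% of the first, 42.3% of the second and 0.0162% of the third.

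Runs of neighbouring TCONS numbers were counted next, where a run is at least 2 members of 1 chromosome whose numbers follow each other without a gap. Of the 521 members, 90 were in such runs, or 17.3% (interval 14.3 to 20.8). There were 42 runs on 15 chromosomes, of which 38 had 2 members, 3 had 3 and 1 had 5. Among the comparison transcripts 1814 (53.7%) were in runs, with a longest run of 13, and among the 1326 lower-numbered ones 550 (41.5%), with a longest run of 7. A smaller set leaves more gaps in the numbering, so these shares are not on a common footing. By block, 25 of 85 members were in runs in the first (29.4%) and 65 of 436 in the second (14.9%).

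The class of the following transcript can be set side by side for both groups. A member was followed by an EZH2-only transcript at the next number 109 times, and that transcript was a member 48 times, or 44.0% (35.1 to 53.4). A lower-numbered comparison transcript was followed by one 407 times, and it was a member 68 times, or 16.7% (13.4 to 20.6). The shares lay closer together within the second block, at 37.1% of 89 members (27.8 to 47.5) and 32.1% of 193 comparison transcripts (25.9 to 39.0). At places up to 30%, a range that takes in both blocks, they were 46.6% of 88 members (36.5 to 56.9) and 32.1% of 168 comparison transcripts (25.5 to 39.5). In the first block they were 75% of 20 members (53.1 to 88.8) and 28.6% of 21 comparison transcripts (13.8 to 49.96). Whether neighbouring numbers belong to the same locus is not known here. The intervals treat them as independent, so they may be too narrow, and no difference between neighbours is called from them.

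The transcript that follows can also be described by its lincRNA_FPKM. Within the second block, where zeros made up 42.3% of all transcripts, the deposited transcript at the next number was listed at 0 in lincRNAseq after 47.3% of 226 members (40.9 to 53.8), an interval that takes in that overall share. It was so after 52.2% of 632 transcripts at 0 in all 3 libraries (48.3 to 56.1) and after 35.9% of 482 comparison transcripts (31.7 to 40.3). In the first block, where zeros made up 53.7%, the shares were 66.7% of 27 members (47.8 to 81.4) and 25% of 28 comparison transcripts (12.7 to 43.4). Over all lower-numbered transcripts they were 49.4% of 253 members and 20.5% of 880 comparison transcripts, a range in which the latter reach into the third block.

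The longest run had 5 members on chromosome 15. It began with TCONS_00025537, the highest member, at an EZH2_FPKM of 578.6, went on with 218.0, 262.5 and 201.5, and ended with TCONS_00025541 at 28.1. All 5 were listed at 0 in IgG and in lincRNAseq. The highest value in the run was 20.6 times the lowest, which stood at its end. The run lay in the first block of the chromosome, at places from 1.54% to 2.09%.

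The next runs had 3 members each. On chromosome 14, TCONS_00021529 had an EZH2_FPKM of 83.4, the member after it 402.2, and TCONS_00021531 had 282.6. On chromosome 16, TCONS_00028349 had 174.4, the member after it 272.7, and TCONS_00028351 had 193.8. All values of both runs were above the upper quartile of the members, 35.3, and both runs lay in the first block, whose members had a median of 177.5. A run of 3 on chromosome 6, named after its values were seen, lay in the second block, and had EZH2_FPKM values of 46.9, 7.18 and 191.0. Its middle member was below the median of the members of that block, 8.68, and both others were far above it.

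**Figure D5:**
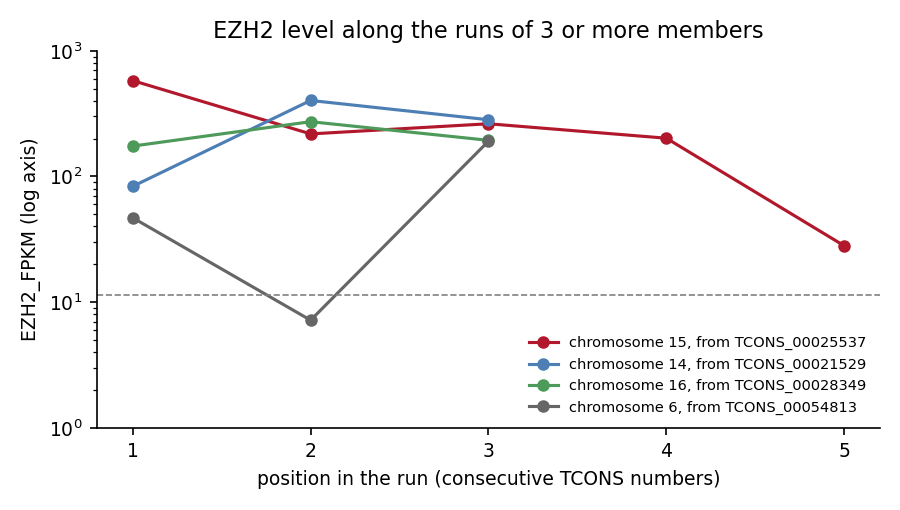
EZH2_FPKM (log axis) of the members in the 4 runs of 3 or more consecutive TCONS numbers, by position in the run, with 1 line per run and the median of all 521 members, 11.4, as a dashed line. All points but 1, the middle of the run on chromosome 6 at 7.18, lie above the line.

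Over all runs, the EZH2 levels of members in runs and outside runs overlapped widely. The median EZH2_FPKM was 13.7 for the 90 members in runs (interval 8.48 to 28.8) and 11.3 for the 431 outside runs (9.41 to 12.8). On the log2(EZH2_FPKM + 2) scale, neighbouring members differed by a median of 0.98 over 48 pairs (0.59 to 1.62). Members whose next member was further off differed from it by a median of 1.20 over 455 pairs (1.11 to 1.33). The interval for neighbours takes in that for members further apart. By block, members in runs and outside runs had medians of 241.0 and 156.9 in the first and of 7.80 and 8.75 in the second.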

How the data were processed

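RNA of pig longissimus dorsi muscle was measured in 3 libraries, from the EZH2 precipitate, the IgG precipitate and total RNA. FPKM values were made by the authors by trimming and quality filtering of reads, alignment to Sus_scrofa 10.2 with TopHat2, assembly with Cufflinks, comparison with the annotation with Cuffcompare and estimation with Cuffdiff. Versions are not given in the sources used here. FPKM scales with transcript length and with the total of each library, so a short transcript can have a high value from few fragments.

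Each transcript was counted once. Medians have 95% binomial order-statistic intervals and shares 95% Wilson intervals. Differences of medians are on the log2(FPKM + 2) scale. Each condition has 1 library, so no test was made, and intervals are given for counting error and not as tests. Members and lists were chosen with earlier results of these data known. Named transcripts are the 2 highest and 2 lowest members in EZH2_FPKM, the first and last members of the 3 longest runs (ties by lower number), and the 2 comparison transcripts of lowest lincRNA_FPKM. The code was checked on simulated data. Transcripts on 1 row, on chromosome X and on scaffolds entered only alternatives. Computations used scipy 1.17.1, pandas 2.3.3 and numpy 2.4.6 under Python 3.11.15, and plots matplotlib 3.10.9.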

Additional observations from a re-analysis of the deposited data

Results flagged for a closer look

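Transcripts outside the selection also had an EZH2_FPKM above 0 with values of 0 in the IgG control and in lincRNAseq, a signal in data the comparisons above do not use. On chromosomes 1 to 18 there were 42 that were on 1 row only, with a median EZH2_FPKM of 7.07. Chromosome X had 32, with a median of 21.8 and a highest value of 712.0, above that of any member. Unplaced scaffolds had 38, with a median of 19.7 and a highest value of 795.6. The share of EZH2-only transcripts listed at 0 in lincRNAseq was 13.4% in the main analysis. It was 12.2% with transcripts on 1 or 2 rows and 12.9% with all chromosomes and scaffolds. The share within each added set alone was not computed, and no excess is read from these counts.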

How the results depend on the processing

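Of 45 alternative values, 22 stayed within tolerance (1.5 times for a count, the 95% interval of the main value otherwise) and 23 moved outside it. A change of direction was possible only for the 8 differences of medians, and 0 of these changed direction. The number of members stayed between 505 and 650. With lincRNA_FPKM of at most 0.1, the median EZH2_FPKM of the members was 8.76 in place of 11.4. The share of EZH2-only transcripts listed at 0 was 12.2% with transcripts on 1 or 2 rows and 15.1% with EZH2_FPKM of at least 1, in place of 13.4%. The share of members in runs, 17.3%, was 25.5% with a step of at most 2, 43.0% with a step of at most 5, 2.69% with a minimum run of 3 and 31.3% with the step counted in places, each by construction of the run. The difference of medians, 1.53, was 1.001 against comparison transcripts with lincRNA_FPKM above 1, 1.08 against lower-numbered ones, 0.76 in the first block and 0.50 in the second, and 2.07 with a pseudocount of 0.1. Lower numbers and blocks were added after the data were seen. So were the alternatives for the share of lower-numbered members, which was 100% and became 99.2% with lincRNA_FPKM of at most 0.1 and 83.7% with chromosomes divided at the middle of their number range, where 20.8% of comparison transcripts were below. In place of 44.0% and 16.7%, the following transcript was a member after 75% of members and 28.6% of comparison transcripts in the first block; the shares were 37.1% and 32.1% in the second block, and 46.6% and 32.1% at places up to 30%. In place of 49.4% and 20.5%, it was listed at 0 in lincRNAseq after 66.7% of members and 25% of comparison transcripts in the first block; the shares were 47.3% and 35.9% in the second block, and 52.3% and 35.7% at places up to 30%. For the other values that moved, the cause was not tested. No paired analysis was possible because there was 1 library of each kind. The depth of IgG limits its values of 0 for members of few fragments, if 1 IgG fragment has the FPKM of about 5.05 EZH2 fragments. That value was inferred from the most frequent ratio.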
